A study of Mus musculus with 6 samples.

Results

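Retinoic acid is made from vitamin A and acts on gene expression through nuclear receptors. Retinol is first oxidised to retinal, and retinal dehydrogenases of the ALDH1A family then convert retinal irreversibly to retinoic acid. CRABP proteins bind retinoic acid in the cytoplasm, CYP26 enzymes break it down, and the receptors RARα, RARβ and RARγ bind DNA together with an RXR partner and switch transcription of their targets in response to the ligand. In the lung, retinoic acid is known for its part in bud formation in the embryo and in the formation of alveolar septa after birth.

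The genes described here are 9 of those that act in these steps, namely Aldh1a1, Aldh1a2 and Aldh1a3 for synthesis, Crabp1 and Crabp2 for binding, Rara, Rarb and Rarg for the receptors and Cyp26b1 for clearance. They were chosen by their function and were found in the files by their Ensembl identifiers. All 9 were present among 21603 genes. The RNA was bound to HA-tagged ribosomes (RiboTag) and was immunoprecipitated from whole lungs of C57BL/6 mice at postnatal day 8. Tagging and deletion both depended on Pdgfrb(BAC)-CreERT2, a tamoxifen-inducible Cre under regulatory sequence of the pericyte gene Pdgfrb, which was induced with tamoxifen in the first days after birth. The 3 control samples carried 1 floxed copy of each of Yap1 and Wwtr1, given as Yap1+/-;Wwtr1+/- in the labels, and the 3 Yap1,Wwtr1 iPCKO samples carried floxed alleles on both copies, given as Yap1-/-;Wwtr1-/-. The controls were also Cre-positive, so they are not wild type. YAP1 and TAZ, the product of Wwtr1, are coactivators of TEAD transcription factors in the Hippo pathway. The comparison asks which ribosome-bound transcripts of these cells differ when both coactivators are deleted. Values are RPKM, reads per kilobase of exon per 1 M mapped reads, as the authors made them.

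Low RPKM values fell on steps of whole reads, from which depths of 17.4 to 34.7 M reads for the controls and 14.2 to 39.7 M for the iPCKO samples were read. Yap1 had 12.4 ± 0.859 RPKM (SD, n = 3) in the controls and 5.61 ± 0.314 RPKM in the iPCKO samples, a log2 fold change of −1.12 (adjusted p = 0.00017, limma), whereas Wwtr1 had 60.4 ± 9.48 and 62.0 ± 1.63 RPKM (log2 fold change 0.05, adjusted p = 0.82). A value over the whole gene does not test the loss of a single floxed exon. The pericyte marker Pdgfrb was at 1192.69 to 1665.8 RPKM in the 6 libraries. Of the pericyte markers, 10 of 10 passed the filter on low values. Single markers called higher or lower here passed the thresholds defined below, at which 4.11% of all tested genes were higher and 2.68% lower. The pericyte markers themselves moved in both directions, with Cspg4, Kcnj8 and Abcc9 higher and Notch3 and Rgs5 lower in the iPCKO samples, and their summed level was 3276 to 4267 RPKM in the controls and 3032 to 3800 RPKM in the iPCKO samples. Leukocyte markers moved with the groups. Their summed level over 13 genes was 114 to 159 RPKM in the controls and 472 to 4246 RPKM in the iPCKO samples, highest in iPCKO 3, and 7 of the 11 tested were higher. S100a8 and S100a9, neutrophil genes, made up most of this sum, and the other 11 markers summed to 47.4 to 67.1 RPKM in the controls and 94.8 to 174 RPKM in the iPCKO samples. Summed epithelial markers (547 to 631 against 804 to 851 RPKM) were likewise higher in all 3 iPCKO samples. Sftpc, at mean 362.8 and 454.2 RPKM, was the largest part of this sum. Of 9 tested, 1 was higher (Sftpb). In 5 of the 9, all iPCKO samples lay above all controls, as in 2205 of all 12034 tested genes. Epcam, Lamp3, Nkx2-1 and Aqp5 overlapped between the groups. The means of Nkx2-1 (6.43 and 5.87 RPKM) and Aqp5 (14.2 and 12.2 RPKM) were lower in the iPCKO samples. Summed smooth muscle and myofibroblast markers (1764 to 2044 against 2108 to 2406 RPKM) were also higher in all 3 iPCKO samples. Of 10 tested, 3 were higher (Cnn1, Actg2 and Aspn). Of these 10, Acta2, at mean 683.1 and 705.5 RPKM, and Myh11, at 145.6 and 137.5 RPKM, overlapped between the groups. The low neuronal and Schwann markers were also higher in sum (2.13 to 2.6 against 4.7 to 6.5 RPKM). The sums of fibroblast (321 to 376 against 302 to 397 RPKM) and endothelial markers (154 to 162 against 160 to 174 RPKM) overlapped between groups, with 1 of 10 fibroblast markers lower (Npnt) and 1 of 10 endothelial markers higher (Kdr). Y-linked transcripts summed to 35.02 and 40.79 RPKM in controls 1 and 3 and to at most 0.07 RPKM in control 2 and the 3 iPCKO samples, and the labels give no sex. The part of these differences in the results below was not tested. In this bulk measurement, fewer cells of a type and less RNA per cell cannot be told apart.

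Seen as levels per exon length, the receptors, Aldh1a1 and Aldh1a2 were the more abundant genes, and the binding and clearance genes and Aldh1a3 stayed below 1 RPKM in every control. The order of mean RPKM in the controls was Rara, Rarg, Aldh1a1, Aldh1a2, Rarb, Crabp1, Cyp26b1, Aldh1a3 and Crabp2, from 16.9 ± 3.04 to 0.0779 ± 0.0832 RPKM (SD, n = 3). Rara stood at the percentile 84.7 of all genes by mean control RPKM, Rarb at 54.6 and Crabp2 at 30.3. Of neighbours in this order, the control samples of Rara and Rarg overlapped, as did those of Cyp26b1 and Aldh1a3, and the other neighbours were apart. In the iPCKO samples, Cyp26b1, at 0.887 RPKM, stood above Crabp1, at 0.556 RPKM, and the rest of the order was the same. Here Rarg and Aldh1a1, Aldh1a2 and Rarb, and Crabp1 and Aldh1a3 overlapped, and the other neighbours were apart.

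**Figure D1:**
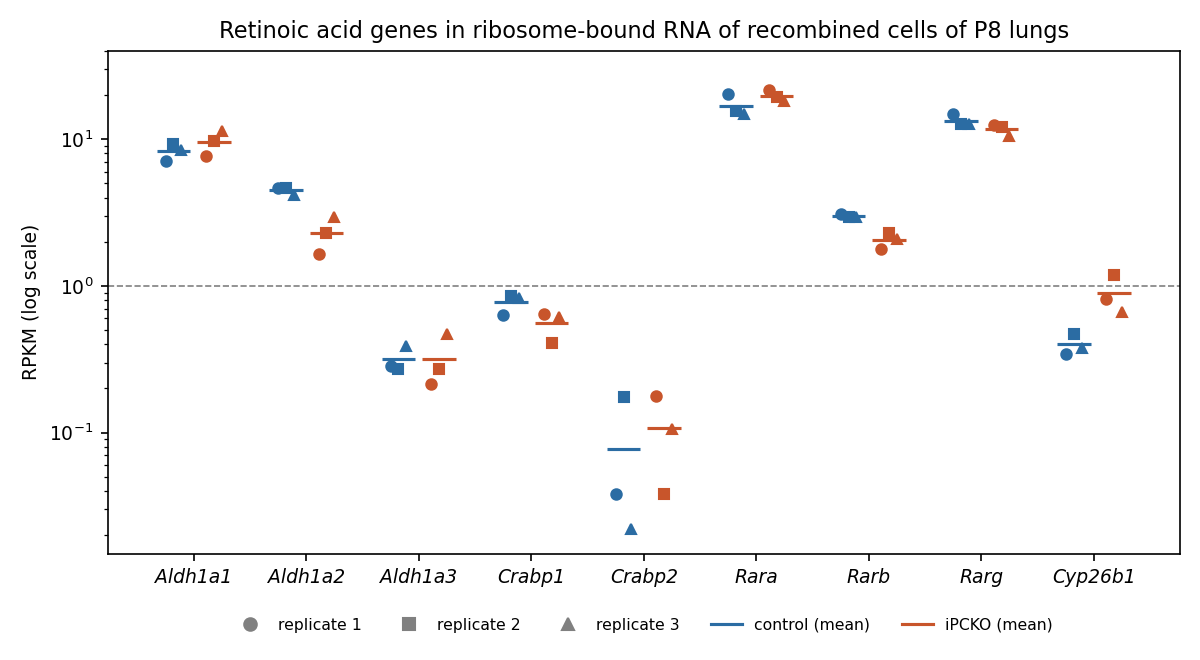
RPKM on a log axis for each of the 9 genes in each of the 6 libraries, with controls in blue, iPCKO samples in orange, 1 symbol per replicate number and a bar at each group mean. The dashed line marks 1 RPKM, the level of the filter. Aldh1a2 and Rarb lie below the 3 controls in all 3 iPCKO samples, Cyp26b1 lies higher in each, and the Crabp2 points scatter between 0.022 and 0.179 RPKM.

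Groups were compared on log2(RPKM + 0.1) with limma, and all log2 fold changes below refer to values with this pseudocount added, so that those of low genes come out too small. Of the 9 genes, 5 reached 1 RPKM in at least 3 samples and were tested with all 12034 genes that did so (Aldh1a1, Aldh1a2, Rara, Rarb and Rarg). The study's thresholds, here called the thresholds, require an adjusted p under 0.01 together with a log2 fold change beyond 0.5 in either direction. The study applied them to read counts with DESeq2, a different test, so calls made here need not match its calls. With these thresholds, limma called 0 of the 5 genes, where 6.79% of all tested genes were called. At an unadjusted p below 0.05, 2 of the 5 passed, where 29.7% of all tested genes did. At an adjusted p below 0.05 with the same fold change, Aldh1a2 and Rarb were lower, a direction and threshold that 4.25% of all genes met. In 3 of the 5, all iPCKO samples lay below all controls, which held for 17.1% of all tested genes. The median log2 fold change of the 5 was −0.19, against 0 over all genes tested.

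**Figure D2:**
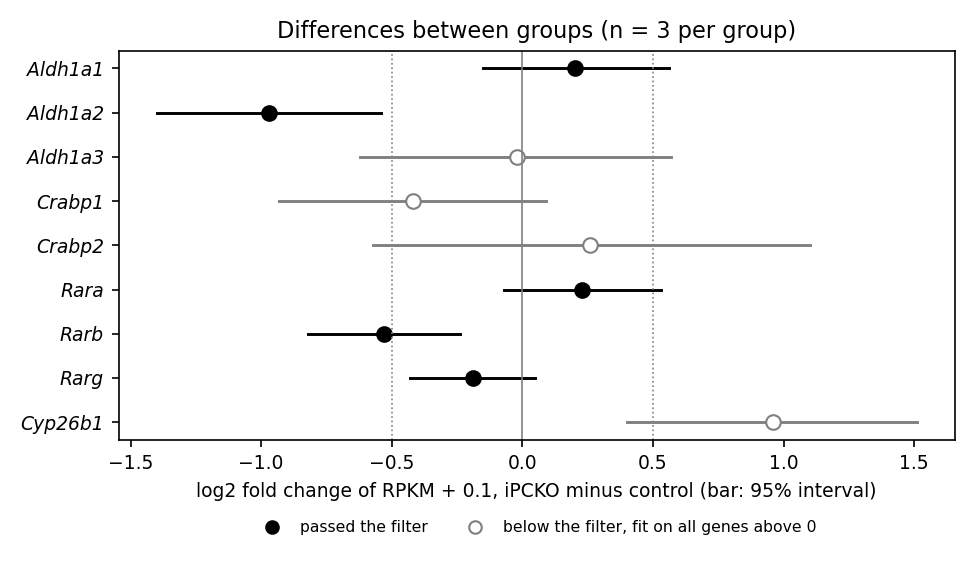
Log2 fold change of RPKM + 0.1 for the 9 genes, iPCKO minus control (n = 3 per group), with 95% confidence intervals as bars. Filled points passed the filter, open points did not and come from the fit on all genes above 0. Dotted lines mark changes of 0.5 in either direction, and the intervals of Aldh1a2, Rarb and Cyp26b1 do not include 0.

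Among the synthesis genes, the values for Aldh1a2 were lower in the iPCKO samples and those for Aldh1a1 and Aldh1a3 overlapped between groups. Aldh1a2 (ENSMUSG00000013584, chromosome 9, 71215789 to 71296243, plus strand, GRCm38), also known as RALDH2, is the main source of retinoic acid in the early embryo. It had 4.62, 4.66 and 4.18 RPKM in controls 1 to 3 and 1.65, 2.30 and 2.94 RPKM in iPCKO samples 1 to 3. The groups did not overlap, and the iPCKO mean, 2.30 ± 0.648 RPKM, was 51.2% of the control mean, 4.48 ± 0.268 RPKM (SD, n = 3). The log2 fold change was −0.97 (standard error 0.19, 95% confidence interval −1.4 to −0.54), and its adjusted p of 0.0103 (limma) narrowly missed the threshold of 0.01. The exact two-sided permutation test gave p = 0.1, the smallest that 3 against 3 samples allow.

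The call on Aldh1a2 turned on single settings, and its direction did not. Without iPCKO 1, its lowest sample, the log2 fold change was −0.76 and the adjusted p 0.00871, and without iPCKO 3, its highest, they were −1.16 and 0.00454. Without any of the other 4 samples the adjusted p was higher than with all 6, at 0.035, 0.038 and 0.0322 without controls 1, 2 and 3 and 0.033 without iPCKO 2 (limma). With Y-linked transcripts as a covariate, the values were −1.03 and 0.112 (limma). Only control 2 lacks these transcripts among the controls, so that no test within the libraries without them was made, and the part of sex in the difference was not tested beyond this covariate. Mesothelial cells are known to express Aldh1a2. The 7 of their markers in the files summed to 8.07 to 11.3 RPKM in the controls and 14.0 to 16.1 RPKM in the iPCKO samples. Of the 4 tested, Msln was higher. Wt1, which defines these cells, was below the filter and not tested, at 0.115 to 0.265 RPKM with overlapping groups. None of the 7 was at 0. The part of mesothelial cells in the Aldh1a2 value was not tested.

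Aldh1a1 (ENSMUSG00000053279, chromosome 19, 20492715 to 20643465, plus strand) encodes RALDH1, which oxidises retinal and other aldehydes. Its RPKM was 7.09, 9.27 and 8.37 in the controls and 7.64, 9.77 and 11.28 in the iPCKO samples. The groups overlapped, and the log2 fold change of 0.20 had a 95% confidence interval of −0.15 to 0.56 (adjusted p = 0.432, limma), so that a change in either direction of the size found for Aldh1a2 lay outside it. Aldh1a3 (ENSMUSG00000015134, chromosome 7, 66390890 to 66427517, minus strand), the third enzyme of this family, was far lower. It had 0.286, 0.273 and 0.387 RPKM in the controls and 0.215, 0.273 and 0.471 RPKM in the iPCKO samples, which corresponds to between 21 and 62 reads per library. Its difference, −0.02 (−0.62 to 0.57, fit on all genes above 0), was 0.00 with a pseudocount of 1 RPKM and changed sign depending on the sample left out.

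As shares of the summed RPKM of the 3 dehydrogenases, Aldh1a2 made up 38.5, 32.8 and 32.3% in the controls and 17.3, 18.6 and 20.0% in the iPCKO samples. Aldh1a1 made up 63.0% ± 3.4 of the controls and 78.8% ± 1.85 of the iPCKO samples (SD, n = 3). The sums themselves, 13.0 ± 1.11 and 12.2 ± 2.6 RPKM, differed by less than the spread between samples. These shares describe the RNA and not enzyme activity, and they were not tested.

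Among the receptors, the values for Rarb were lower in the iPCKO samples, those for Rarg were slightly lower and those for Rara overlapped between the groups. Rarb (ENSMUSG00000017491, chromosome 14, 16430839 to 16819156, minus strand) encodes RARβ and is itself a classical target of retinoic acid through a response element at its promoter. It had 3.08, 2.95 and 2.94 RPKM in the controls and 1.79, 2.28 and 2.08 RPKM in the iPCKO samples. The groups did not overlap, and the iPCKO mean of 2.05 ± 0.245 RPKM was 68.6% of the control mean of 2.99 ± 0.0783 RPKM (SD, n = 3). The log2 fold change was −0.53 (standard error 0.128, 95% confidence interval −0.82 to −0.24, adjusted p = 0.0262, limma), which missed the threshold of 0.01. Over the 6 fits that each left out a sample, it ranged from −0.60 to −0.44 with adjusted p between 0.0424 and 0.089, and with Y-linked transcripts as a covariate it was −0.51 (adjusted p = 0.256).

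The Rarb value carries a limit of its own. Its exons share 1793 bases with those of Top2b, a topoisomerase gene on the opposite strand, and the strand setting of the counting is not given in the sources used here. Top2b was expressed at 56.3 RPKM in controls and 49.1 RPKM in iPCKO samples (log2 fold change −0.19, adjusted p = 0.196, limma). If strand was not used, reads in the shared bases could have been counted for either gene or for neither, which was not tested. The exons of the other 8 genes share no base with another annotated gene.

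Because Rarb is known as a target of its own ligand, the start sites of these genes were searched for retinoic acid response elements. A RefSeq window from 250 bases before to 50 bases after a start site (GRCm38.p6) was found for 7 of the 9 genes, 12 windows in all, and not for Aldh1a3 and Crabp2. The searched elements were the receptor hexamer AGGTCA, the response elements DR5 and DR2, which are direct repeats of this hexamer or its close variants with 5 or 2 bases between them, and the TEAD motif GGAATG, each on both strands. DR5 was found in 1 of the 12 windows, that of Rarb, and in 0.0974% of 32851 RefSeq windows. Rarb was known beforehand for a response element at its promoter, so its match could be foreseen. The percentage only describes how rare the letters are. The first stretch below shows the DR5 in capitals, and the second shows the TEAD motif of the same window in capitals, which lies on the opposite strand and does not overlap the DR5. Both are given 5′ to 3′ on the strand of Rarb, at chr14:16575508-16575534 and chr14:16575474-16575489, minus strand.
Rarb DR5: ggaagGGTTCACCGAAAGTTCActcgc
Rarb TEAD motif: tctttCATTCCgtgtg
The DR5 spans positions −53 to −37 and the TEAD motif −8 to −3 from the start site. Longer annotated Rarb transcripts cover both with an exon. TEAD motifs were also found in a window of Aldh1a1, beginning at −168, and of Crabp1, at −107, and in 14.7% of all windows. The hexamer AGGTCA was found in a window each of Rara and Rarg and in 16.3% of all windows. DR2, found in 0.268% of all windows, was in none of the 12. The window of Aldh1a2 and that of Cyp26b1 held none of the searched letters. These matches describe the sequence, and no measurement of binding was analysed here.

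Rara (ENSMUSG00000037992, chromosome 11, 98927818 to 98974942, plus strand) encodes RARα, the most widely expressed receptor. Its RPKM was 20.41, 15.57 and 14.80 in the controls and 21.46, 19.27 and 18.27 in the iPCKO samples. Control 1 lay within the range of the iPCKO samples, and the log2 fold change of 0.23 had a 95% confidence interval of −0.07 to 0.53 (adjusted p = 0.289, limma). Without control 1 the difference was 0.37 (adjusted p = 0.0419, limma). Rarg (ENSMUSG00000001288, chromosome 15, 102234938 to 102257517, minus strand) encodes RARγ. It had 14.82, 12.64 and 12.58 RPKM in the controls and 12.45, 12.08 and 10.45 RPKM in the iPCKO samples. The groups did not overlap, but the closest samples were 12.58 and 12.45 RPKM, and the log2 fold change of −0.19 (−0.43 to 0.05, adjusted p = 0.263, limma) was not past the test.

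The summed RPKM of the 3 receptors was 33.3 ± 4.39 in the controls and 33.4 ± 2.46 in the iPCKO samples (SD, n = 3). Rarb made up 8.03, 9.46 and 9.68% of this sum in the controls and 5.02, 6.77 and 6.76% in the iPCKO samples. Rara accounted for 50.7% ± 2.32 and 58.9% ± 1.45, and Rarg for 40.3% ± 1.44 and 34.9% ± 1.0. Within the family, the mix in the iPCKO samples held a larger share of Rara and smaller shares of Rarb and Rarg. For each receptor the shares of the groups did not overlap, but the 3 shares of a library depend on one another. The shares were not tested, and the levels of Rara overlapped between the groups.

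**Figure D3:**
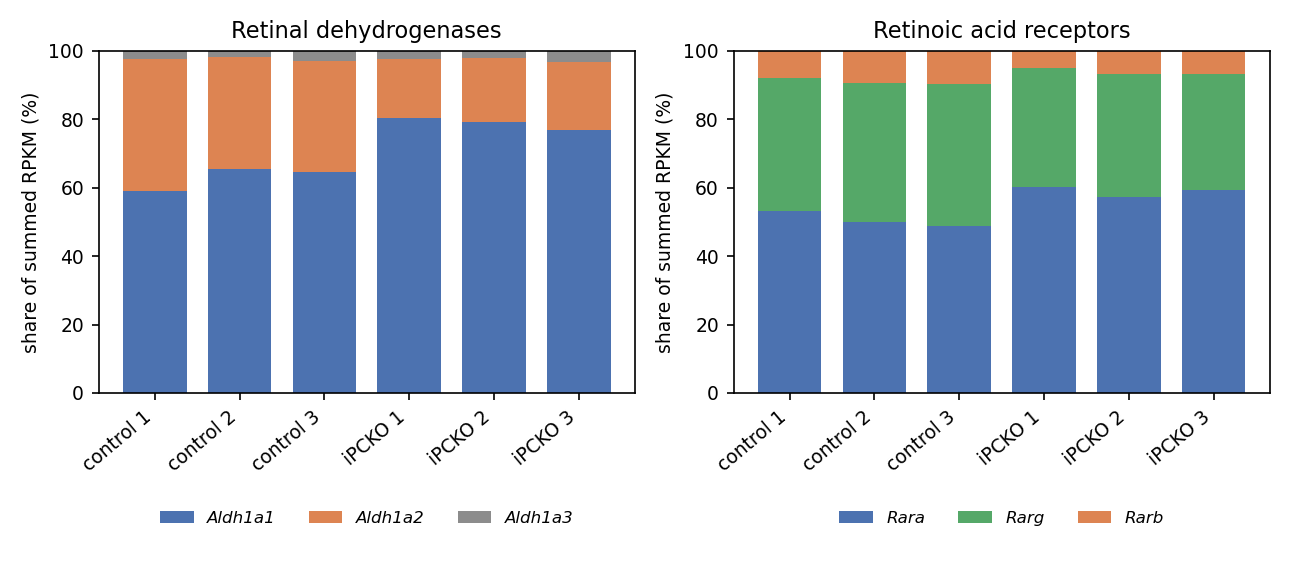
Share of each gene in the summed RPKM of the retinal dehydrogenases (left) and of the retinoic acid receptors (right), in percent, as a stacked bar for each of the 6 libraries. Aldh1a2 takes 32.3 to 38.5% in the controls and 17.3 to 20.0% in the iPCKO samples, and Rarb takes 8.03 to 9.68% and 5.02 to 6.77%.

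Both genes for retinoic acid binding proteins were low. Crabp1 (ENSMUSG00000032291, chromosome 9, 54764748 to 54773110, plus strand), which encodes a protein that holds retinoic acid in the cytoplasm, had 0.633, 0.858 and 0.827 RPKM in the controls and 0.648, 0.409 and 0.612 RPKM in the iPCKO samples. The groups overlapped, and these values rest on 7 to 23 reads per library. The log2 fold change was −0.42 (−0.93 to 0.09, adjusted p = 0.289, limma on all genes above 0). Crabp2 (ENSMUSG00000004885, chromosome 3, 87948666 to 87953376, plus strand), whose product carries retinoic acid to the receptors in the nucleus, had 0.038, 0.174 and 0.022 RPKM in the controls and 0.179, 0.038 and 0.106 RPKM in the iPCKO samples. With 1 to 5 reads per library, a difference was not detectable at this depth (log2 fold change 0.26, −0.57 to 1.1).

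For clearance, Cyp26b1 (ENSMUSG00000063415, chromosome 6, 84571414 to 84593908, minus strand) encodes an enzyme that oxidises retinoic acid to inactive products, and its values were higher in the iPCKO samples. It had 0.345, 0.473 and 0.380 RPKM in the controls and 0.809, 1.19 and 0.665 RPKM in the iPCKO samples, with no overlap. The iPCKO mean of 0.887 ± 0.269 RPKM was 222% of the control mean of 0.400 ± 0.066 RPKM (SD, n = 3). Only iPCKO 2 reached 1 RPKM, so Cyp26b1 did not pass the filter and was not tested with the other genes. In the fit on all 17678 genes above 0, its log2 fold change was 0.96 (standard error 0.238, 95% confidence interval 0.40 to 1.51, adjusted p = 0.0431, limma). In that fit, 5.08% of genes were higher at an adjusted p below 0.05 and the fold change threshold, and 16.1% had all iPCKO samples above all controls. The adjusted p ranged from 0.0678 to 0.187 when a sample was left out, was 0.386 with Y-linked transcripts as a covariate and was 0.0837 with quantile normalization. With a pseudocount of 1 RPKM the log2 fold change was 0.42 (adjusted p = 0.0503, limma). Set against Aldh1a2, the ratio of Cyp26b1 to Aldh1a2 RPKM was 0.0748, 0.102 and 0.0911 in the controls and 0.491, 0.517 and 0.226 in the iPCKO samples. This ratio describes both values together with no test. It covers Aldh1a2 alone and not synthesis as a whole, since the summed RPKM of the 3 dehydrogenases was 13.0 ± 1.11 and 12.2 ± 2.6.

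The other genes of the pathway were described by lists of 57 genes in all, of which 38 passed the filter. Of these 38, 1 was higher and 2 were lower at the thresholds, where 4.11% of all tested genes were higher and 2.68% lower, and the median log2 fold change was −0.02. Of the retinol dehydrogenases and retinal reductases, 9 of 16 were tested and 1, Rdh5, was lower. Rdh5, a retinol dehydrogenase best known from the visual cycle, had 3.99, 3.47 and 3.84 RPKM in the controls and 1.77, 1.43 and 1.67 RPKM in the iPCKO samples. The groups were well apart, with a fitted change of −1.17 on the log2 scale and a standard error of 0.13 (adjusted p = 0.000705, limma). It passed the thresholds in 15 of 16 alternative settings and missed them with Y-linked transcripts as a covariate. Rdh5 shares 720 exon bases with Bloc1s1 on the same strand, which had 24.5 and 24.2 RPKM in the groups (adjusted p = 0.953, limma).

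Of the 13 listed genes known as induced by retinoic acid in several cell types, 10 were tested, 1 was higher and 1 was lower, and the median log2 fold change was −0.14. Meis1, a homeobox partner of HOX proteins, was at 12.05, 13.52 and 14.72 RPKM in the controls and 9.43, 9.70 and 8.95 RPKM in the iPCKO samples. It fell by 0.51 on the log2 scale (adjusted p = 0.00911, limma), close to both thresholds, and stayed past them in 6 of 16 alternatives. Tgm2, which encodes tissue transglutaminase, rose from 9.02, 10.96 and 8.59 RPKM to 13.76, 17.61 and 15.77 RPKM (log2 fold change 0.72, adjusted p = 0.00641, limma) and held in 9 of 16 alternatives. Among the fits without a sample, Meis1 was past the thresholds in 1 of 6, the one without control 1, and Tgm2 in 2 of 6, those without control 2 and without iPCKO 1. Exons of Meis1 and Tgm2 share bases with annotated transcripts of the opposite strand, which limits these values as it does that of Rarb, and Meis1 also shares 1029 exon bases with Gm37818 on its own strand.

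**Figure D4:**
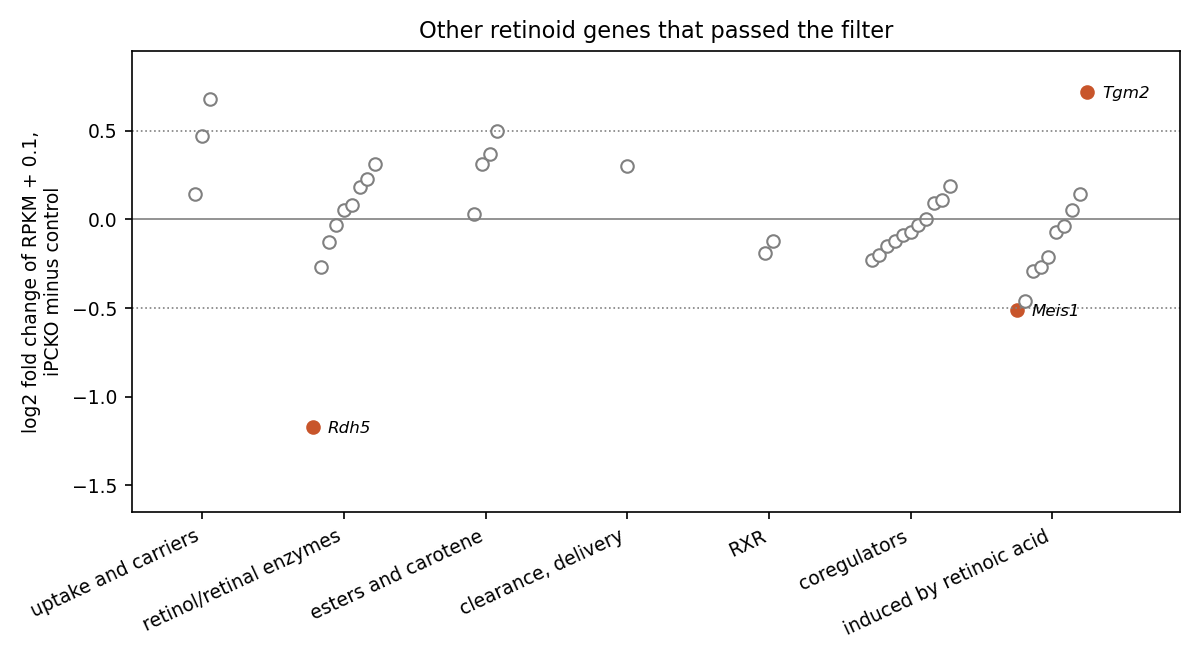
Log2 fold change of RPKM + 0.1, iPCKO minus control, for the other retinoid genes that passed the filter, grouped by list and ordered by size within each list. Genes of 2 lists are drawn in both. Filled orange points passed the thresholds and are named, namely Rdh5 and Meis1 below 0 and Tgm2 above it, and dotted lines mark changes of 0.5.

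In the remaining lists no gene passed the thresholds in limma. Of 8 listed genes for retinol uptake and carriage, 3 were tested and 2 had an unadjusted p below 0.05, against 29.7% of all tested genes. The most abundant of them were Cd36, a lipid scavenger receptor, at 12.9 and 14.1 RPKM (adjusted p = 0.482), and Scarb1, a scavenger receptor that takes up carotenoids and other lipids, at 5.09 ± 0.3 and 7.12 ± 0.781 RPKM (SD, n = 3). The log2 fold change of Scarb1 was 0.47 (0.22 to 0.72, adjusted p = 0.0221, limma), short of both thresholds. Of 7 genes for retinyl ester storage and carotene cleavage, 4 were tested and 3 had an unadjusted p below 0.05, beside the same 29.7%. Ces1d, a carboxylesterase that can hydrolyse retinyl esters, had 9.35 ± 1.65 and 13.2 ± 1.27 RPKM (log2 fold change 0.50, adjusted p = 0.0439, limma). How reads were split between Ces1d and other carboxylesterase genes was not tested. Dgat1, an acyltransferase that can esterify retinol, had 6.02 and 7.52 RPKM (adjusted p = 0.117). Of 3 other genes for clearance and delivery, only Fabp5, a fatty acid binding protein that also binds retinoic acid, was tested. It had 4.48 and 5.51 RPKM and an unadjusted p of 0.034 (adjusted p = 0.132, limma). An unadjusted p below 0.05 was met by the same 29.7% of all tested genes. Cyp26c1, a relative of Cyp26b1, stayed below the filter at 0.317 and 0.198 RPKM.

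The receptor partners and coregulators were close in both groups. Of the 3 RXR genes, 2 were tested and 0 had an unadjusted p below 0.05 (limma). Rxra had 34.70, 24.46 and 23.00 RPKM in the controls and 24.12, 23.48 and 23.10 RPKM in the iPCKO samples, a log2 fold change of −0.19 (−0.53 to 0.14) in which control 1 stood apart from the rest. Rxrb had 11.7 ± 1.07 and 10.8 ± 1.12 RPKM (−0.12, −0.37 to 0.13). All 11 coregulators were tested and 2 had an unadjusted p below 0.05, where 29.7% of all tested genes did. The corepressor Ncor1 was at 88.3 ± 21.1 and 78.1 ± 7.25 RPKM (−0.15, −0.55 to 0.25), and the coactivator Crebbp at 45.8 ± 1.99 and 43.1 ± 2.31 RPKM (−0.09, −0.28 to 0.10). The median log2 fold change over the 11 coregulators was −0.07.

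**Figure D5:**
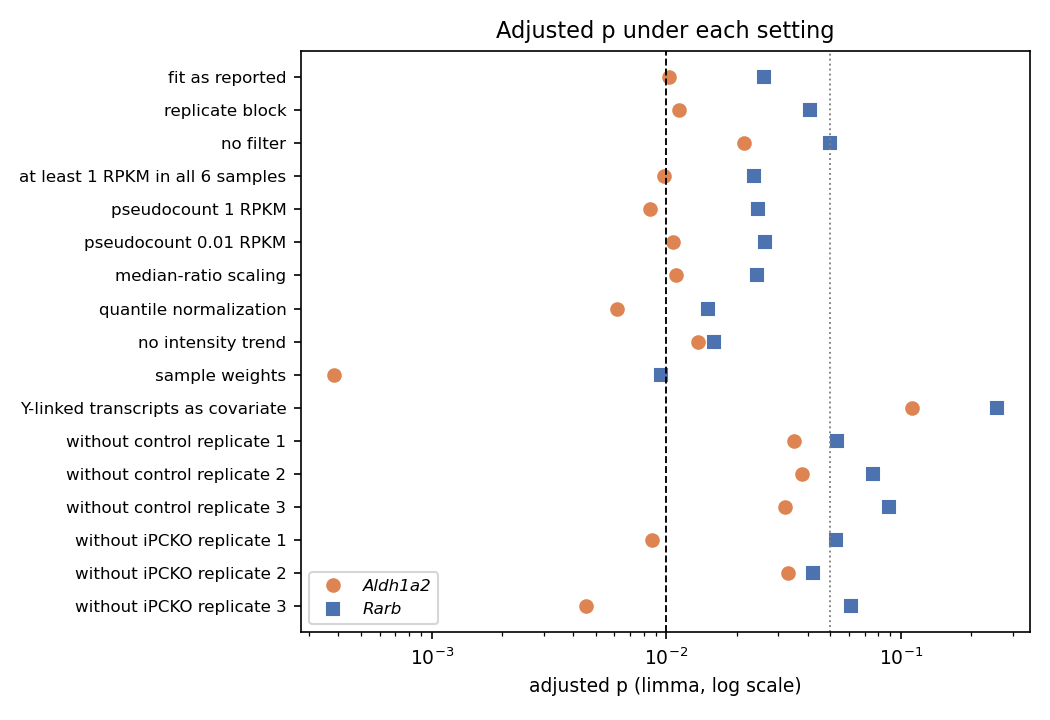
Adjusted p (limma, log axis) of Aldh1a2 (circles) and Rarb (squares) in the fit as reported and under each of 16 alternative settings. The dashed line marks 0.01 and the dotted line 0.05. Aldh1a2 lies on either side of 0.01, from 0.000383 with sample weights to 0.112 with Y-linked transcripts as a covariate. Rarb lies between 0.00953 with sample weights, where its fold change of −0.40 stayed within the threshold of 0.5, and 0.256.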

How the data were processed

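The authors made stranded total RNA libraries from anti-HA precipitates, used TopHat to map the read pairs to GRCm38 (mm10) and HTSeq 0.6.1 to count them, and deposited RPKM per Ensembl gene, 1 table per sample. The exon length they used and the strand setting of the counting are not given in the sources used here. Groups were taken from the labels, which do not say that replicates are separate animals, so p-values measure the spread between these samples.

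Symbols and positions (1-based) came from GENCODE M21. Of 21603 genes, 12034 with at least 1 RPKM in at least 3 samples were tested with limma 3.58.1 (R 4.3.3) on log2(RPKM + 0.1), with an intensity trend, no covariate and Benjamini-Hochberg adjustment. Members below the filter were taken from the same fit on 17678 genes above 0. Reads per library were estimated from the steps of low RPKM values of single-transcript genes, of which 75.1 to 76.4% lay within 0.02 reads of a whole number; they served only as a scale and for the read numbers given. Confidence intervals are 95% intervals of the fit. Promoter windows are those of RefSeq. Python 3.11.15 was used for the rest.

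The members and lists were chosen with earlier results of these data known. All 9 members are named, and of each pathway list the genes past the thresholds or, where none passed, the 2 with the highest mean RPKM. The lists leave out 2 genes that are not reported here. Protein sequences were not used here.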

Additional observations from a re-analysis of the deposited data

How the results depend on the processing

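The number of genes past the thresholds, 817, was 1590 with sample weights, 119 with Y-linked transcripts as a covariate, 1313 at an adjusted p of 0.05 and 411 at an absolute log2 fold change above 1. Leaving out each sample gave 382 to 899, with 382 without control 3, 414 without iPCKO 2 and 499 without iPCKO 3. With the replicate number as a block it was 922. Same-numbered samples correlated in their deviations with r of 0.238, 0.092 and 0.022, so the numbers were not taken to pair the samples. With the block, 0 of the 5 tested genes passed, and adjusted p was 0.0113 for Aldh1a2 and 0.0408 for Rarb (limma).

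Of the 5 tested genes, 2 passed at an adjusted p of 0.05, which Cyp26b1 also met in the fit on all genes above 0 (0.0431). Of the 5, 1, Aldh1a2, passed the thresholds under 4 other settings and without iPCKO 1 or iPCKO 3. Its log2 fold change and adjusted p were −0.97 and 0.00978 with at least 1 RPKM required in all 6 samples, −0.75 and 0.00849 with a pseudocount of 1 RPKM, −0.99 and 0.00618 with quantile normalization, and −0.91 and 0.000383 with sample weights. Leaving out a sample gave −1.16 to −0.76 and 0 to 1 genes past the thresholds. With sample weights, Cyp26b1 was at 1.18 (adjusted p = 0.00567) in the fit on all genes above 0. Aldh1a3, at −0.02, became 0.00 with a pseudocount of 1 RPKM and 0.13 with the Y-linked covariate, and ranged from −0.27 to 0.16 when a sample was left out. Crabp2, at 0.26, was −0.08 with sample weights and −0.47 with the Y-linked covariate. The cause was not tested. The other 7 genes kept their direction in every alternative run. Requirements on low values could not be varied for the 4 genes below the filter. Depth limits Crabp2 and Crabp1 most.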
